A study of Homo sapiens with 27 samples.

Results

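The nuclear-encoded subunits of the mitochondrial respiratory chain were followed across the RNA, chromatin and RNA-binding libraries of HL-60, a long-established human cell line from promyelocytic leukaemia. Members were taken by gene name. Names of complex I subunits beginning NDUFA, NDUFB, NDUFC, NDUFS or NDUFV, the SDH genes of complex II, the UQCR genes of complex III, the COX genes numbered 4 to 8 of complex IV and the ATP5 genes of complex V were kept. The rule matched 138 gene names, of which 54 pseudogene names were left out. Their highest level in any RNA library was 0.960 CPM (read counts scaled to library size). The members were then 84 gene IDs with 83 names, out of 58233 gene IDs in the tables, with 37 in complex I, 5 in complex II, 9 in complex III, 14 in complex IV and 19 in complex V. The rule does not match the subunit genes COX4I1, CYC1 and NDUFAB1, and it matches ATP5S and ATP5SL, which are named like subunits without being ones.

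The respiratory chain sits in the inner mitochondrial membrane. Complexes I and II pass electrons from NADH and succinate to ubiquinone, complex III passes them to cytochrome c and complex IV to oxygen, and complex V, the ATP synthase, uses the proton gradient that complexes I, III and IV build. Complex II is coded by nuclear genes alone, whereas the other complexes combine nuclear subunits with a few made from mitochondrial DNA, so the genomes of the nucleus and of the mitochondrion both contribute to them. Nuclear subunit genes are known for promoters with binding sequences of NRF1, of ETS-family factors such as GABP, and of YY1.

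The series had 27 libraries with 1 library in each group. RNA was taken from cells given 100 µM DRB, cells given 0.8 µM actinomycin D (ActD), cells given the vehicle DMSO and untreated cells as captured newly made (nascent) RNA, and from untreated cells as total RNA. DRB is a kinase inhibitor that blocks elongation by RNA polymerase II, and ActD intercalates into DNA and blocks transcription. The same DRB, ActD and DMSO treatments were used for chromatin immunoprecipitation (ChIP) with antibodies to H2A.Z, a variant of histone H2A, and to its acetylated form (acH2A.Z), which was also done in cells labelled siMyc and siNTC, and RNA immunoprecipitation (RIP) of acH2A.Z, H2A.Z and the acetyltransferase Tip60 was done in untreated cells. The groups carried no other allele or agent in the labels, the treatment time is not given in the sources used here, and no RNA table of the siMyc and siNTC cells was used here.

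With 1 library in a group, a ratio compares libraries and no p-value was computed. Log2 ratios are of CPM + 1. Brackets hold an exact 95% binomial interval of the ratio of counts, which leaves out the added 1 CPM and so can lie outside the ratio, and which covers counting error only. Genes that averaged at least 1 CPM with at least 20 summed counts over the libraries compared were measured, and 2-fold was the limit for higher or lower. Centred values are relative to the median of all measured genes. The RNA libraries held between 12600067 and 25167597 expected counts. Mitochondrial genes took 66.5% of counts in DRB, 56.9% in ActD and 45.9% in DMSO, against 0.560% in untreated nascent and 0.649% in total RNA, so that CPM of nuclear genes in the first 3 libraries is a share of what these left over. The granule genes MPO, CTSG, PRTN3 and AZU1 were present in every RNA library, with MPO between 361 and 559 CPM, whereas the granule gene ELANE was at 0.159 CPM in untreated nascent RNA and at 0 in the other RNA libraries. EPCAM, HBA1 and HBB were at 0 in all 5. In bulk samples, fewer cells of a type and less RNA per cell cannot be told apart.

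The promoters of some members named in the chromatin results are printed first. Each is the RefSeq window (GRCh38.p14) from 250 bases before to 50 bases after the gene start, read along the gene's strand. COX6A1 (chr12:120437863-120438162, plus strand) lies under the acH2A.Z peak with the highest deposited score of all members in DRB cells, COX5B (chr2:97645812-97646111, plus strand) under that in ActD cells and UQCRFS1 (chr19:29213102-29213401, minus strand) under that in DMSO cells. SDHA (chr5:218070-218369, plus strand) and ATP5I (chr4:674227-674526, minus strand) held start peaks that other lists lacked, and UQCR11 (chr19:1605413-1605712, minus strand) had a start peak in all 3 RIP lists. Capitals mark exact matches, on either strand, to 3 motifs: GCGC, any base, T and GCGC for NRF1, CCGGAAG for the ETS family and AAGATGGC for YY1.
COX6A1: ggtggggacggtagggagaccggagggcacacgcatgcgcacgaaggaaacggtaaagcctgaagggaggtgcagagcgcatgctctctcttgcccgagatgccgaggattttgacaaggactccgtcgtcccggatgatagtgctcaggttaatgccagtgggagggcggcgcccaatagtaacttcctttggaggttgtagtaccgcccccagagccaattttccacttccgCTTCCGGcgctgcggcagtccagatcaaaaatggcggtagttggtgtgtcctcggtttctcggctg
COX5B: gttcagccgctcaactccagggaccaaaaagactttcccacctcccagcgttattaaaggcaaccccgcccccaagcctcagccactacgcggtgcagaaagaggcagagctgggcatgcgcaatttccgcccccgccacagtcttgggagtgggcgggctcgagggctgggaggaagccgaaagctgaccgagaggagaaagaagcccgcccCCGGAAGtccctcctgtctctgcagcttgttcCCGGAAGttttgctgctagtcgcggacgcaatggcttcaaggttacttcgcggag
UQCRFS1: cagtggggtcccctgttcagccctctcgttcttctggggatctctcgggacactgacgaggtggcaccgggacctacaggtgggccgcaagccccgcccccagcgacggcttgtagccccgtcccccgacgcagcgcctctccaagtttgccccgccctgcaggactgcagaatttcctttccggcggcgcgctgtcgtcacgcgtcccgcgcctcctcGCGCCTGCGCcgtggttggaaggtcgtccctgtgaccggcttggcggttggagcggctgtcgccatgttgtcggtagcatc
SDHA: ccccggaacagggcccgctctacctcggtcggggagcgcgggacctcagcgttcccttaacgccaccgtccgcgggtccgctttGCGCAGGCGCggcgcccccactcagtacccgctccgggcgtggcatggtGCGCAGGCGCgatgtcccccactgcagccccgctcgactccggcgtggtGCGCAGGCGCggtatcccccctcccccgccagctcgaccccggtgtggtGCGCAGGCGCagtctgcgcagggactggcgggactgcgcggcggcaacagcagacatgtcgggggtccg
ATP5I: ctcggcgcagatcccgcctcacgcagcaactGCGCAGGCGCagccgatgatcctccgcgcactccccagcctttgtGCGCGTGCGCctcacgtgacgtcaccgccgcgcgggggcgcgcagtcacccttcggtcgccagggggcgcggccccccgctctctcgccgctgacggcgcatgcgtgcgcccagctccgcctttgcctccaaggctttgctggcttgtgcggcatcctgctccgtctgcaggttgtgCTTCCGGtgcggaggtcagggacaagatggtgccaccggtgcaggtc
UQCR11: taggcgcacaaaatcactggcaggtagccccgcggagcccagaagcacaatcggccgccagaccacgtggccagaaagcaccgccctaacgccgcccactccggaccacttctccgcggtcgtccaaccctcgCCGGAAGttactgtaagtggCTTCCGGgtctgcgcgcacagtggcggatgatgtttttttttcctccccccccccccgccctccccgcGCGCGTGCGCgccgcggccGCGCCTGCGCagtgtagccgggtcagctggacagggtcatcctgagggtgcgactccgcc

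In the SDHA promoter the NRF1 letters occurred at 4 places, with first bases at -166, -117, -68 and -19 (the gene start being base 1 and the base before it -1), each 49 bases after the one before it. The UQCR11 promoter held NRF1 letters at -29 and -10 and ETS letters at -117 and -97, and COX5B held ETS letters at -37 and -5. UQCRFS1 had 1 NRF1 match, at -31, COX6A1 had 1 ETS match, at -16, and ATP5I had NRF1 letters at -219 and -174 and ETS letters at 4. Promoter windows were given for 66 members, 78 windows in all because some genes have several starts. NRF1 letters were in 20.5% of the members' windows, against 10.5% of 13094 windows of genes with at least 1 CPM in total RNA and 5.78% of all 35116 promoters. ETS letters were in 25.6%, against 18.1% and 10.3%, and YY1 letters in 16.7%, against 5.06% and 2.89%. At least 1 of the 3 was in 39 of the 78 windows, or 50%, against 29.7% and 17.0%. A match is a description of the letters and not a binding site, and matches to different motifs or to both strands may overlap.

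Most members were present in untreated HL-60 cells. Above 0 were 78 of 84 IDs in their nascent RNA and 79 in their total RNA, with median levels of 16.6 and 12.5 CPM. Per transcript length, the highest members in total RNA were NDUFV1, the NADH-binding subunit of complex I, at 75.7 TPM (scaled for transcript length as well), and UQCRH, the hinge protein of complex III, at 72.1 TPM. UQCRQ, a small complex III subunit, followed at 42.03 TPM, and ATP5A1 and ATP5B, the alpha and beta subunits of the ATP synthase head, stood at 36.6 and 32.3 TPM. Summed over all members, total RNA held 657 TPM, of which complex I had 269, complex V 168, complex III 156, complex IV 46.7 and complex II 17.5. The tissue isoforms of complex IV set the lower end. COX6A2 and COX7A1, the heart and muscle forms, and COX7B2, a testis form, were listed at 0 in all 5 RNA libraries, COX8C, another testis form, had 1 count in total RNA alone (0.0789 CPM), and the testis form COX6B2 was at 0 in DRB, ActD and DMSO, with 0.238 CPM in untreated nascent RNA and 2.37 CPM in total RNA. Counts of UQCRH and its copy UQCRHL, of ATP5L and its copy ATP5L2, and of SDHD and its second ID (at 0 counts) may be split between near-identical sequences. Whether counting used strand is not given in the sources used here, so overlapping and antisense genes are uncertain as well.

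**Figure D1:**
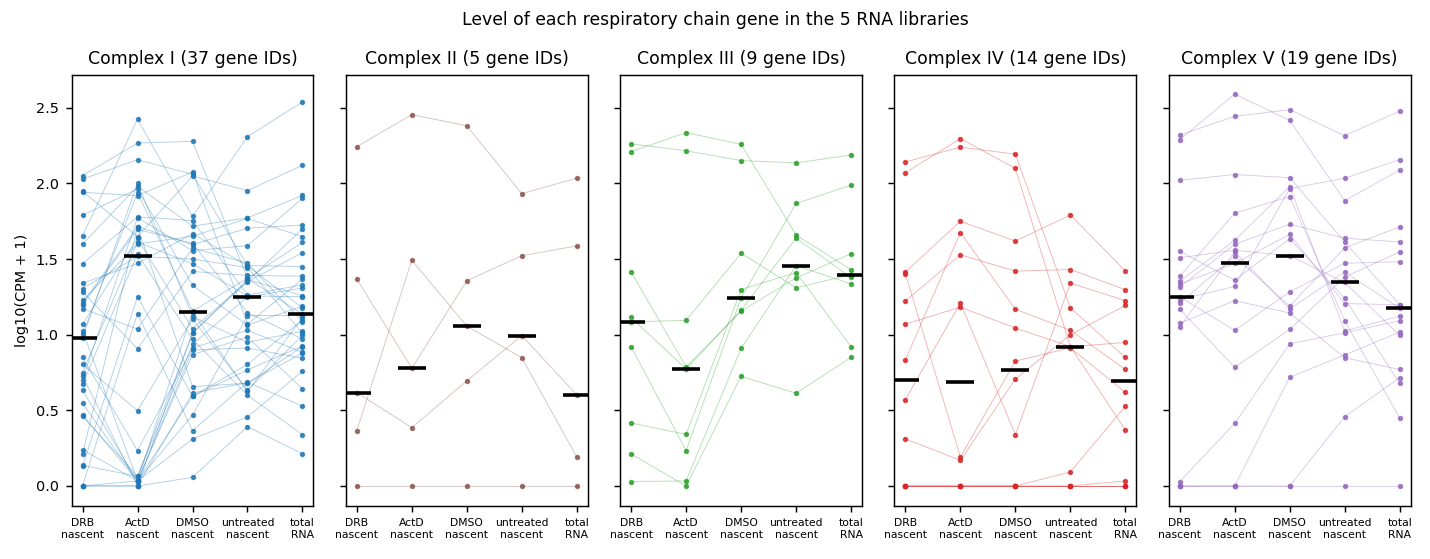
Level of each member in the 5 RNA libraries, as log10(CPM + 1), with 1 panel for each complex and 1 line for each gene ID, black dashes at the median of a complex, and libraries in the order DRB, ActD, DMSO, untreated nascent and total RNA. COX6A2, COX7A1 and COX7B2 of complex IV lie at 0 in every library, and medians over all members were 10.7, 16.3, 13.6, 16.6 and 12.5 CPM in that order.

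In DRB cells 29 of 73 measured members were at least 2-fold lower than in DMSO cells and 2 were at least 2-fold higher, while 57.4% of all 12252 measured genes were lower and 9.62% were higher. The members' share of lower genes, 39.7%, was thus below that of all genes, and so was their share of higher genes, 2.74%. The median log2 ratio of members was -0.65 in CPM, against -1.32 for all genes. Relative to that median gene the members stood at 0.67, with 25 higher and 8 lower, and on a scale that leaves out mitochondrial genes, ribosomal RNA and polymerase III transcripts they stood at 0.07, with 7 higher and 19 lower. All genes had 3235 higher and 2848 lower of 12252 after centring. On the last scale the median of all genes was -0.70, with 1982 higher and 5453 lower of 12200. The share of higher genes among called members was 6.45% in CPM, 75.8% after centring and 26.9% after rescaling, so a direction for the whole family depends on the scale. Among all called genes that share was 14.4% in CPM, 53.2% after centring and 26.7% after rescaling. The members' median was above that of all genes on each scale. Values relative to the median gene are given as centred beside most CPM ratios of called genes below.

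In ActD cells 29 of 74 measured members were at least 2-fold lower and 14 at least 2-fold higher, where 53.1% of all 12149 measured genes were lower and 15.9% higher. The higher members were ATP5D, ATP5S, COX6A1, COX8A, NDUFA3, NDUFA4, NDUFA5, NDUFA7, NDUFB11, NDUFB2, NDUFB6, NDUFS3, NDUFV1 and SDHD. The members' shares were 39.2% lower and 18.9% higher. Their median log2 ratio was -0.26 in CPM, against -1.17 for all genes, 0.91 after centring (37 higher, 12 lower) and 0.13 after rescaling (17 higher, 25 lower). Higher genes made up 32.6% of called members in CPM, 75.5% after centring and 40.5% after rescaling. Low counts touch both comparisons, since 8 members in the DRB comparison and 16 in the ActD comparison had fewer than 10 counts in either library.

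The complexes did not stand alike. By CPM median, complex III was lowest in both treatments, at -1.07 in DRB (5 of 9 lower, none higher) and -1.48 in ActD (7 of 9 lower, none higher), and complex IV was highest, at -0.17 in DRB (2 lower and 1 higher of 9) and 0.43 in ActD (2 lower and 2 higher of 9). After centring, complex III stood at 0.25 in DRB and -0.30 in ActD, and complex IV at 1.15 in DRB and 1.61 in ActD. Centring adds the same amount to every gene of a comparison, so it cannot change the order of the complexes. It did change the sign of complex III in DRB and of complex IV in DRB. Complex I had 14 lower and 1 higher of 34 in DRB (median -0.95, centred 0.37) and 14 lower and 9 higher of 35 in ActD (median -0.04, centred 1.13). Complex V had 7 lower and none higher of 17 in DRB (median -0.43, centred 0.89) and 4 lower and 2 higher of 17 in ActD (median -0.44, centred 0.73).

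**Figure D2:**
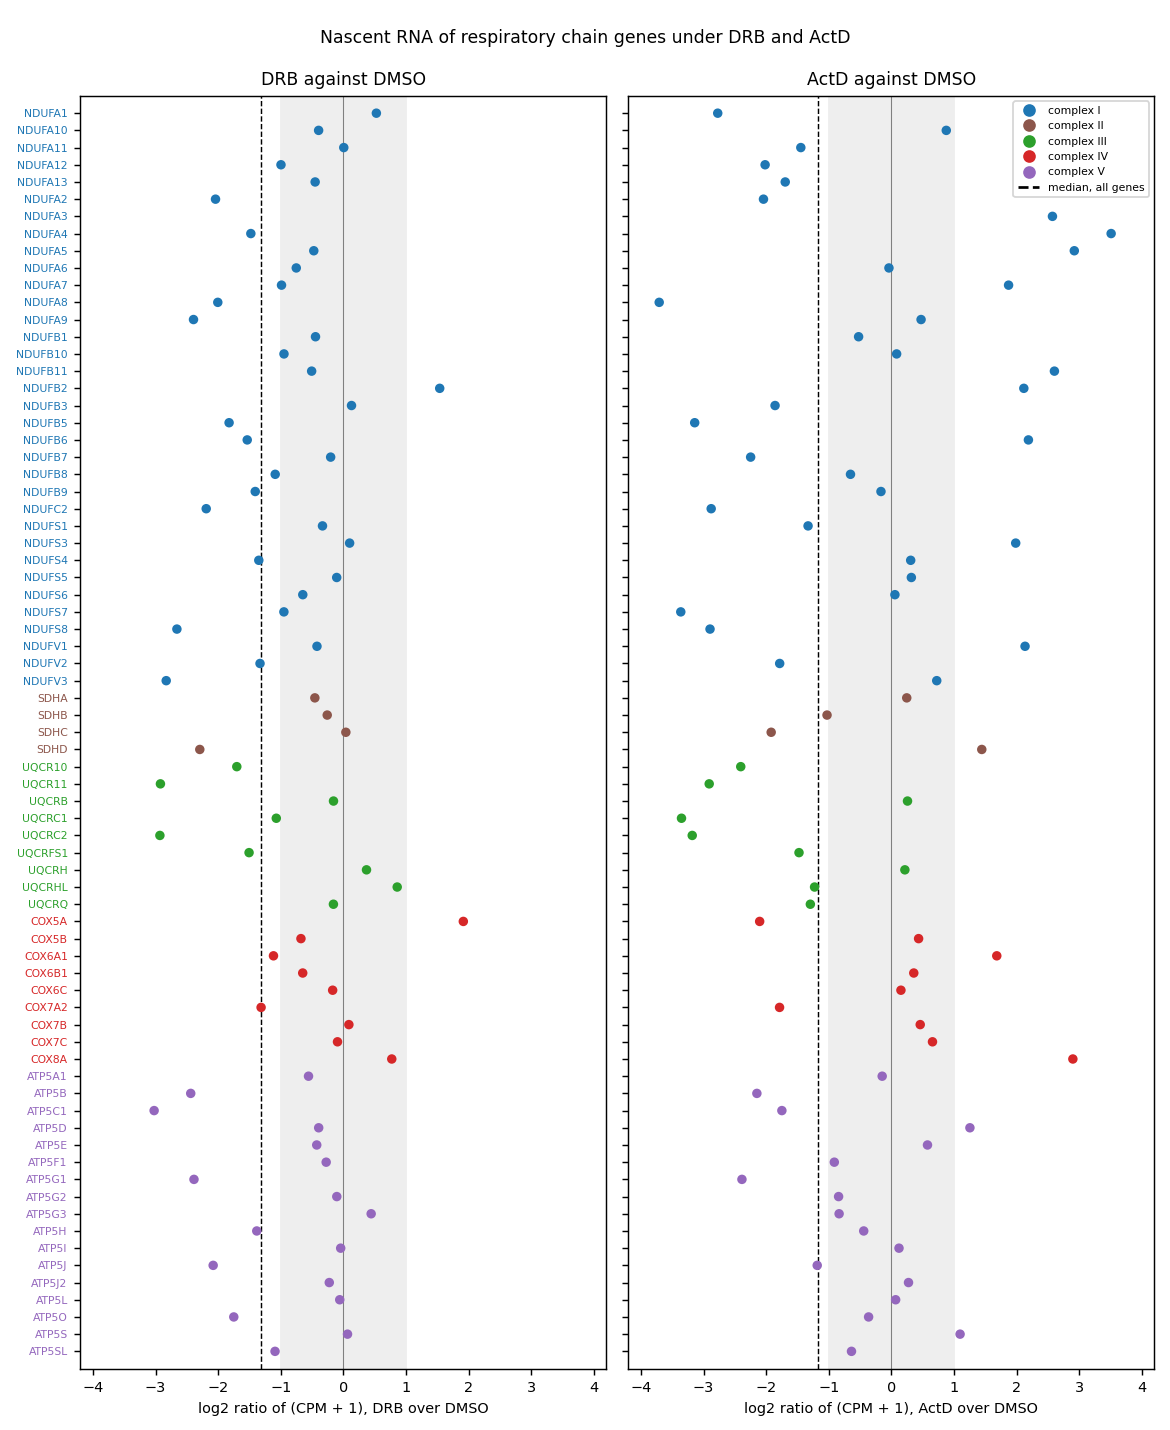
Log2 ratio of (CPM + 1) of each measured member but 1, DRB over DMSO on the left and ActD over DMSO on the right, with genes down the page coloured by complex and the dashed line at the median of all measured genes (-1.32 and -1.17). Most members lie to the right of the dashed line in both panels, with UQCRC1, UQCRC2 and UQCRFS1 of complex III to the left of 0 in each.

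The nuclear core subunits of complex I carry the flavin and the iron-sulphur clusters. NDUFV1, which binds NADH, had 44.1 CPM in DRB and 264 CPM in ActD, against 59.4 CPM in DMSO, 203 CPM in untreated nascent RNA and 344 CPM in total RNA. DRB and DMSO lay within 2-fold (log2 ratio -0.42 [-0.58, -0.28]), and ActD stood far above DMSO at 2.13 [2.04, 2.26], or 3.31 relative to the median gene. NDUFS3, part of the ubiquinone-reducing module, had 10.7 CPM in DRB and 42.3 CPM in ActD, against 9.94 CPM in DMSO, 21.5 CPM in untreated nascent RNA and 49.2 CPM in total RNA. It too was level in DRB, at 0.10 [-0.22, 0.45], and higher in ActD, at 1.99 [1.82, 2.37] (centred 3.16).

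Other core subunits went below DMSO. NDUFV2, an iron-sulphur protein beside NDUFV1, had 13.9 CPM in DRB and 9.88 CPM in ActD, against 36.5 CPM in DMSO, 28.6 CPM in untreated nascent RNA and 11.2 CPM in total RNA, which gave -1.33 [-1.64, -1.16] in DRB and -1.78 [-2.18, -1.60] in ActD (centred -0.01 and -0.61). NDUFS8, which holds iron-sulphur clusters next to the quinone site, had 0.365 CPM in DRB and 0.159 CPM in ActD, against 7.62 CPM in DMSO, 16.8 CPM in untreated nascent RNA and 19.3 CPM in total RNA, with ratios of -2.66 [-6.10, -3.18] in DRB and -2.90 [-8.65, -3.70] in ActD (centred -1.34 and -1.72), the ActD ratio from 2 counts. NDUFS7, which carries the last iron-sulphur cluster before ubiquinone, had 4.32 CPM in DRB and 0 CPM in ActD, against 9.29 CPM in DMSO, 21.4 CPM in untreated nascent RNA and 33.8 CPM in total RNA, so it was at least 39.0-fold lower in ActD (against a floor of 3 counts) and at -0.95 [-1.56, -0.66] in DRB. NDUFS1, the largest core subunit, had 87.7 CPM in DRB and 43.5 CPM in ActD, against 111 CPM in DMSO, 88.6 CPM in untreated nascent RNA and 131 CPM in total RNA, within 2-fold in DRB and at -1.33 [-1.49, -1.21] in ActD, which became -0.16 after centring. The core genes described therefore ranged in ActD from NDUFS7, at 0, to NDUFV1, far above DMSO.

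Among the 30 accessory subunits of complex I, 11 were lower and 1 higher of 27 measured in DRB, and 10 were lower and 7 higher of 28 measured in ActD. NDUFB2, a membrane-arm subunit, had 60.5 CPM in DRB and 90.7 CPM in ActD, against 20.2 CPM in DMSO, 10.6 CPM in untreated nascent RNA and 14.4 CPM in total RNA. It was the sole member at least 2-fold higher in both treatments, at 1.54 [1.39, 1.78] in DRB and 2.12 [1.98, 2.36] in ActD (centred 2.86 and 3.29). NDUFV3, an accessory protein of the NADH module, had 4.04 CPM in DRB and 58.3 CPM in ActD, against 34.9 CPM in DMSO, 37.8 CPM in untreated nascent RNA and 78.6 CPM in total RNA. Its DRB ratio, -2.83 [-3.53, -2.71] (centred -1.51), was the lowest of complex I among members with at least 100 summed counts, while ActD lay within 2-fold of DMSO. NDUFA8, an accessory subunit with paired cysteine motifs, had 2.51 CPM in DRB and 0.0794 CPM in ActD, against 13.1 CPM in DMSO, 3.22 CPM in untreated nascent RNA and 11.99 CPM in total RNA, and was lower in DRB at -2.01 [-2.94, -1.86] and in ActD, from 1 count, at -3.71 [-12.68, -4.87] (centred -0.69 and -2.54). NDUFA4, named with complex I but now assigned to complex IV, had 0.628 CPM in DRB and 50.6 CPM in ActD, against 3.54 CPM in DMSO, 3.77 CPM in untreated nascent RNA and 7.33 CPM in total RNA, and was lower in DRB (-1.48 [-3.70, -1.46], centred -0.16) and higher in ActD (3.51 [3.43, 4.28], centred 4.68). NDUFB6, another membrane-arm subunit, had 0.349 CPM in DRB and 16.8 CPM in ActD, against 2.91 CPM in DMSO, 5.36 CPM in untreated nascent RNA and 11.5 CPM in total RNA, with the same split.

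Complex II has 4 subunits. SDHA, the flavoprotein that oxidises succinate, had 174 CPM in DRB and 284 CPM in ActD, against 239 CPM in DMSO, 84.5 CPM in untreated nascent RNA and 107 CPM in total RNA. It lay within 2-fold of DMSO in both treatments, at -0.46 [-0.53, -0.38] in DRB and 0.25 [0.18, 0.31] in ActD (centred 0.86 and 1.42, the second past 2-fold). SDHB, the iron-sulphur subunit, was low throughout, with 3.14 CPM in DRB and 1.43 CPM in ActD, against 3.95 CPM in DMSO, 8.86 CPM in untreated nascent RNA and 2.997 CPM in total RNA, and its ActD ratio of -1.03 [-2.32, -0.68] turned to 0.14 after centring. SDHC and SDHD form the membrane anchor and went opposite ways in ActD. SDHC had 22.3 CPM in DRB and 5.000 CPM in ActD, against 21.7 CPM in DMSO, 32.3 CPM in untreated nascent RNA and 37.6 CPM in total RNA, which was level in DRB (0.04 [-0.19, 0.27]) and lower in ActD (-1.92 [-2.53, -1.72], centred -0.75). SDHD had 1.33 CPM in DRB and 30.00 CPM in ActD, against 10.4 CPM in DMSO, 6.04 CPM in untreated nascent RNA and 0.552 CPM in total RNA, which was lower in DRB (-2.29 [-3.74, -2.28], centred -0.97) and higher in ActD (1.44 [1.25, 1.81], centred 2.62).

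The 3 core genes of complex III among the members were at least 2-fold lower in both treatments, while CYC1, the core gene that the name rule does not match, was at -0.19 in DRB and -3.16 in ActD. UQCRC2, a core protein that supports the dimer, had 1.604 CPM in DRB and 1.19 CPM in ActD, against 18.9 CPM in DMSO, 24.8 CPM in untreated nascent RNA and 7.33 CPM in total RNA, with ratios of -2.93 [-4.24, -2.94] in DRB and -3.18 [-4.84, -3.24] in ActD (centred -1.61 and -2.01). UQCRC1, its partner core protein, had 7.32 CPM in DRB and 0.714 CPM in ActD, against 16.5 CPM in DMSO, 72.6 CPM in untreated nascent RNA and 96.4 CPM in total RNA, with -3.35 [-5.68, -3.58] in ActD (centred -2.18) and -1.07 [-1.52, -0.83] in DRB, the DRB ratio turning to 0.25 after centring. UQCRFS1, the Rieske iron-sulphur protein, had 11.2 CPM in DRB and 11.4 CPM in ActD, against 33.5 CPM in DMSO, 19.4 CPM in untreated nascent RNA and 23.9 CPM in total RNA, with -1.51 [-1.86, -1.33] in DRB and -1.48 [-1.83, -1.28] in ActD, or -0.19 and -0.30 relative to the median gene. The DRB and ActD levels of UQCRFS1 and of UQCRC2 were close to each other, and those of UQCRC1 were not.

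The small subunits of complex III had unlike levels in the treated libraries. UQCRB, a ubiquinone-binding protein, had 161 CPM in DRB and 216 CPM in ActD, against 180 CPM in DMSO, 44.6 CPM in untreated nascent RNA and 25.9 CPM in total RNA, within 2-fold of DMSO in both treatments. UQCRH had 182 CPM in DRB and 163 CPM in ActD, against 140 CPM in DMSO, 136 CPM in untreated nascent RNA and 153 CPM in total RNA, also within 2-fold. UQCR11, a subunit of the dimer's edge, had 0.0697 CPM in DRB and 0.0794 CPM in ActD, against 7.11 CPM in DMSO, 27.6 CPM in untreated nascent RNA and 20.7 CPM in total RNA, which was 1 count in each treated library against 103 expected counts in DMSO. UQCR10, a small subunit beside the Rieske protein, had 0.628 CPM in DRB and 0 CPM in ActD, against 4.298 CPM in DMSO, 3.099 CPM in untreated nascent RNA and 6.07 CPM in total RNA. UQCRHL, the copy of UQCRH, had 24.97 CPM in DRB and 5.12 CPM in ActD, against 13.3 CPM in DMSO, 22.7 CPM in untreated nascent RNA and 33.3 CPM in total RNA, with ratios of 0.86 [0.65, 1.17] in DRB and -1.23 [-1.80, -0.95] in ActD (centred 2.18 and -0.05).

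In complex IV the 9 common nuclear subunits were measured. COX5A, which sits on the matrix side, had 24.2 CPM in DRB and 0.556 CPM in ActD, against 5.68 CPM in DMSO, 7.19 CPM in untreated nascent RNA and 3.15 CPM in total RNA. It was the sole member higher in DRB (1.91 [1.74, 2.46], centred 3.23) and lower in ActD (-2.10 [-4.71, -2.25], centred -0.93). COX6A1, the widely expressed form of a regulatory subunit, had the reverse pattern, with 5.79 CPM in DRB and 46.3 CPM in ActD, against 13.7 CPM in DMSO, 9.69 CPM in untreated nascent RNA and 4.89 CPM in total RNA, at 1.68 [1.52, 1.99] in ActD and at -1.12 [-1.63, -0.87] in DRB, a ratio that became 0.20 after centring. COX8A, the smallest common subunit, had 2.72 CPM in DRB and 15.2 CPM in ActD, against 1.18 CPM in DMSO, 20.9 CPM in untreated nascent RNA and 15.8 CPM in total RNA. Its ActD ratio, 2.90 [2.98, 4.50], was the highest of complex IV. COX6C had 138 CPM in DRB and 172 CPM in ActD, against 155 CPM in DMSO, 14.03 CPM in untreated nascent RNA and 6.07 CPM in total RNA. COX7C had 117 CPM in DRB and 197 CPM in ActD, against 125 CPM in DMSO, 7.31 CPM in untreated nascent RNA and 7.89 CPM in total RNA. Both of these short subunits were abundant in the DRB, ActD and DMSO libraries and low in the untreated nascent and total RNA libraries. COX7A2, the common partner of the muscle form COX7A1, had 1.05 CPM in DRB and 0.476 CPM in ActD, against 4.09 CPM in DMSO, 8.98 CPM in untreated nascent RNA and 14.6 CPM in total RNA, at -1.31 [-2.89, -1.13] in DRB (0.01 after centring) and -1.79 [-4.61, -1.90] in ActD (centred -0.61).

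Complex V combines a catalytic head (F1), a rotor ring of c subunits, a peripheral stalk and small membrane subunits. ATP5A1, the alpha subunit, had 208 CPM in DRB and 276 CPM in ActD, against 306 CPM in DMSO, 206 CPM in untreated nascent RNA and 299 CPM in total RNA, within 2-fold of DMSO in both treatments. ATP5B, the beta subunit that carries the catalytic sites, had 16.04 CPM in DRB and 19.8 CPM in ActD, against 91.4 CPM in DMSO, 107 CPM in untreated nascent RNA and 143 CPM in total RNA, with ratios of -2.44 [-2.72, -2.31] in DRB and -2.15 [-2.40, -2.01] in ActD (centred -1.12 and -0.98). Alpha and beta assemble in equal numbers, and in the treated libraries the alpha gene lay near its DMSO level while the beta gene lay below it. ATP5C1, the gamma shaft, had 0.0697 CPM in DRB and 1.59 CPM in ActD, against 7.69 CPM in DMSO, 9.298 CPM in untreated nascent RNA and 11.4 CPM in total RNA, at -3.02 [-12.10, -4.28] in DRB from 1 count and -1.75 [-3.04, -1.58] in ActD (centred -1.70 and -0.58). ATP5D, the delta subunit of the head, had 10.3 CPM in DRB and 34.3 CPM in ActD, against 13.8 CPM in DMSO, 24.9 CPM in untreated nascent RNA and 13.96 CPM in total RNA, with 1.25 [1.07, 1.56] in ActD, the highest of complex V among members with at least 100 summed counts.

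The c subunit is coded by 3 genes whose mature proteins are identical. ATP5G1 had 0 CPM in DRB and 0 CPM in ActD, against 4.23 CPM in DMSO, 6.35 CPM in untreated nascent RNA and 9.39 CPM in total RNA. It was at least 20.2-fold lower in DRB and at least 17.8-fold lower in ActD, taken against the floor of 3 counts. ATP5G2 had 16.8 CPM in DRB and 9.68 CPM in ActD, against 18.2 CPM in DMSO, 28.6 CPM in untreated nascent RNA and 29.3 CPM in total RNA. ATP5G3 had 13.7 CPM in DRB and 5.08 CPM in ActD, against 9.84 CPM in DMSO, 23.01 CPM in untreated nascent RNA and 34.2 CPM in total RNA. Neither of these passed 2-fold in DRB or ActD against DMSO. Of the peripheral stalk genes ATP5F1, ATP5H, ATP5J and ATP5O, 3 of 4 were lower in DRB and 1 of 4 in ActD. ATP5J, coupling factor 6, was in both counts, with 21.5 CPM in DRB and 40.95 CPM in ActD, against 94.3 CPM in DMSO, 9.58 CPM in untreated nascent RNA and 12.2 CPM in total RNA, and its ratios centred at -0.76 in DRB and -0.01 in ActD. The membrane subunits ATP5I, ATP5J2 and ATP5L were level, none of the 3 passing 2-fold in either treatment, with DRB ratios between -0.23 and -0.04 and ActD ratios between 0.07 and 0.27. These ratios lay 1.09 or more above the median gene.

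The ActD and DRB ratios share 1 DMSO library, so a match between them is not independent. Of the 73 members measured in both comparisons, 16 were lower in both (21.9%, against 39.1% of 11460 genes measured in both) and 22 lay within 2-fold in both (30.1%, against 14.4%). Those lower in both were ATP5B, ATP5C1, ATP5G1, ATP5J, COX7A2, NDUFA2, NDUFA8, NDUFB5, NDUFC2, NDUFS8, NDUFV2, UQCR10, UQCR11, UQCRC1, UQCRC2 and UQCRFS1. COX6A1, NDUFA4, NDUFB6 and SDHD were lower in DRB and higher in ActD (5.48%, against 5.93% of all genes). Set directly against DRB, ActD had 24 of 66 measured members at least 2-fold higher, with a background of 38.0%, and 15 at least 2-fold lower, with a background of 30.6%. The members' shares, 36.4% and 22.7%, were both below those of all 10430 genes measured, and their median was 0.45 in CPM, against 0.29 for all genes. The largest ActD over DRB ratio was that of NDUFA4, at 4.99 [5.40, 7.47], and the lowest was that of COX5A, at -4.02 [-6.77, -4.39].

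Mitochondrial DNA codes for the remaining subunits. Summed over the 13 subunit genes of mitochondrial DNA, the RNA came to 288376 CPM in DRB and 75835 CPM in ActD, against 209050 CPM in DMSO, 4675 CPM in untreated nascent RNA and 5325 CPM in total RNA. The nuclear members summed to 2437 CPM in DRB and 3998 CPM in ActD, against 3449 CPM in DMSO, 2272 CPM in untreated nascent RNA and 2626 CPM in total RNA. The ratio of mitochondrial to nuclear subunit RNA was therefore 118 in DRB and 19.0 in ActD, against 60.6 in DMSO, 2.06 in nascent RNA and 2.03 in total RNA of untreated cells. In TPM, which allows for length, it was 80.4 in DRB and 15.1 in ActD, against 44.0 in DMSO, 1.93 in nascent RNA and 2.18 in total RNA of untreated cells. The DRB ratio was the highest and both untreated-cell libraries the lowest on each scale. Single genes weigh on these sums, since MT-ND2 alone had 114191 CPM in DRB and 98792 CPM in DMSO, against 293 CPM in untreated nascent RNA. The 2 mitochondrial ribosomal RNA genes, which the sums leave out, took 37.6% of counts in DRB and 49.3% in ActD, against 25.0% in DMSO.

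**Figure D3:**
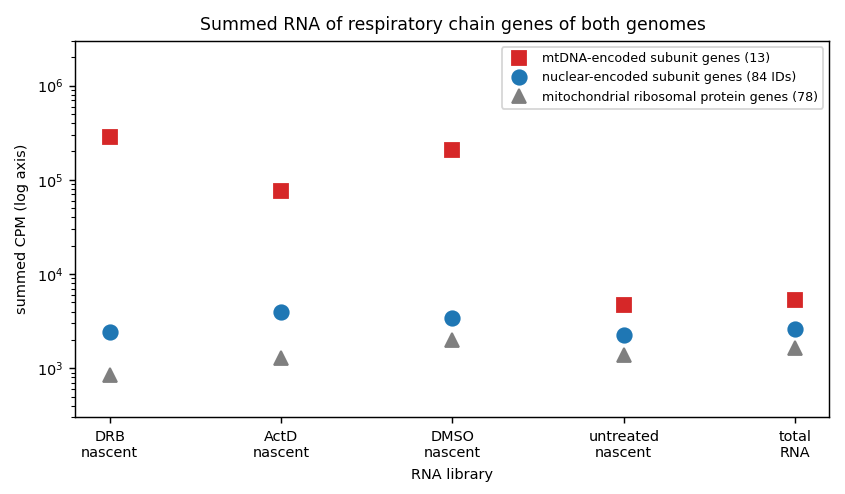
Summed CPM (log axis) of the nuclear-encoded members, of the 13 mtDNA-encoded subunit genes and of the genes for mitochondrial ribosomal proteins, 1 point for each RNA library in the order DRB, ActD, DMSO, untreated nascent and total RNA. The mtDNA-encoded points run from 288376 down to 4675 CPM, while the nuclear members stay between 2272 and 3998 CPM.

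Gene by gene, 2 of 13 mtDNA-encoded subunits were at least 2-fold higher and none lower in DRB than in DMSO (median 0.83), MT-ND3 of complex I and MT-CO1, the catalytic subunit of complex IV. After centring all 13 were higher (median 2.15). In ActD 8 of 13 were lower and none higher (median -1.38), with MT-CYB of complex III lowest at -2.12, although after centring the median was -0.21 and none passed 2-fold. Against DRB, all 13 were lower in ActD (median -1.86). The lists that follow are read against the shares of all genes given above, 57.4% lower and 9.62% higher in DRB and 53.1% lower and 15.9% higher in ActD. After centring, all measured genes had 2848 lower and 3235 higher in DRB and 3345 lower and 3879 higher in ActD. Mitochondrial ribosomal protein genes had 48 lower (63.2%) and 1 higher of 76 in DRB (median -1.59) and 43 lower (56.6%) and 7 higher in ActD (median -1.34). After centring they had 21 lower and 20 higher in DRB and 21 lower and 22 higher in ActD. Assembly factors had 25 lower (55.6%) and 2 higher of 45 in DRB (median -1.39) and 21 lower (46.7%) and 8 higher in ActD (median -0.96), or after centring 9 lower and 11 higher in DRB and 11 lower and 16 higher in ActD. The regulators of mitochondrial biogenesis had 8 lower (72.7%) and 1 higher of 11 in DRB (median -2.34) and 7 lower (63.6%) and none higher in ActD (median -1.74), or after centring 7 lower and 2 higher in DRB and 4 lower and 1 higher in ActD. Among them, the transcription factor YY1 had 1.26 CPM in DRB and 28.8 CPM in ActD, against 66.5 CPM in DMSO. TFAM, which packages mitochondrial DNA, had 23.2 CPM in DRB and 1.67 CPM in ActD, against 21.3 CPM in DMSO. The lowest regulators were YY1 in DRB, at -4.90, and ESRRA in ActD, at -3.13. The highest were PPARGC1B in DRB, at 1.01 (centred 2.33), and POLRMT in ActD, at 0.56 (centred 1.73). The median of the nuclear members was above those of the ribosomal protein, assembly and regulator lists in both treatments. It was below that of the 8 measured subunits and carriers whose names fall outside the rule, at -0.25 in DRB and -0.19 in ActD.

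In untreated cells most members lay within 2-fold between nascent and total RNA. Of 78 measured, 13 were at least 2-fold higher in nascent RNA (background 9.50%) and 6 at least 2-fold lower (background 17.8%), with a median of -0.05 against -0.34 for all 13988 genes. Centring made this 21 higher and 2 lower and rescaling 21 higher and 3 lower, so the higher side of the members was the larger one on each scale. Over all genes the higher side was the larger one after centring as well (1856 higher, 1434 lower). After rescaling it was the smaller one (1554 higher, 1954 lower), as in CPM. ATP5O, the stalk subunit that joins the head, had 11.4 CPM in untreated nascent RNA and 1.81 CPM in total RNA (2.14 [2.03, 3.33]). SDHD had 6.04 CPM in untreated nascent RNA and 0.552 CPM in total RNA (2.18 [2.37, 4.79]), the second from 7 counts, and COX7B, a common complex IV subunit, had 7.35 CPM in untreated nascent RNA and 1.34 CPM in total RNA (1.83 [1.74, 3.27]). UQCRC2 had 24.8 CPM in untreated nascent RNA and 7.33 CPM in total RNA (1.63 [1.44, 2.09]), and NDUFS6, a zinc-binding accessory subunit of complex I, had 26.7 CPM in untreated nascent RNA and 9.23 CPM in total RNA (1.44 [1.25, 1.83]). These 5 were the highest of their complexes among members with at least 100 summed counts. At the lower end of each complex, also among members with at least 100 summed counts, NDUFA8 had 3.22 CPM in untreated nascent RNA and 11.99 CPM in total RNA (-1.62 [-2.30, -1.50]). UQCR10 stood at -0.79 [-1.44, -0.50], COX7A2 at -0.64 [-0.99, -0.41], ATP5L2, a copy of ATP5L, at -0.85 [-1.76, -0.57] and SDHA at -0.34 [-0.44, -0.25], none of these 4 past 2-fold. Below that count, COX6B2 of complex IV was lower, at -1.44 [-4.87, -2.02].

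The DMSO library also stood apart from the untreated nascent library. DMSO had 18 of 75 measured members at least 2-fold higher (background 23.3%) and 13 at least 2-fold lower (background 24.5%) than untreated nascent RNA, shares of 24.00% and 17.3%. The median was -0.04, against 0.05 for all 13714 genes. COX7C stood highest at 3.92 [3.87, 4.32] and COX8A lowest at -3.33 [-4.94, -3.46]. The peripheral stalk genes had 3 of 4 higher (median 2.02), and the complex I core had 4 of 7 lower (median -1.04), among them NDUFV1 and the quinone-module genes NDUFS3, NDUFS7 and NDUFS8. All 13 mtDNA-encoded subunits were higher in DMSO (median 4.79). The mitochondrial share of counts moved with this comparison, at 45.9% in DMSO and 0.560% in untreated nascent RNA, and its part was not tested.

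Nearly every member with RNA carried an acH2A.Z peak. Peak lists were called by the authors per library, and a member counted as having a peak if any base of it lay within 1 kb of the gene body, for 83 members with RefSeq coordinates. In DRB cells 76 members had an acH2A.Z peak (91.6%, with a background of 93.1% of 10843 protein-coding genes with at least 1 CPM in total RNA), in ActD cells 72 (86.7%, background 83.9%) and in DMSO cells 75 (90.4%, background 87.6%). Of the 76 members that themselves had at least 1 CPM in total RNA, 73 had a peak in DMSO cells, or 96.1%. Within 1 kb of the gene start, which could be placed for 66 members, 62 had a peak in DRB (93.9%, background 89.5%), 58 in ActD (87.9%, background 79.7%) and 62 in DMSO (93.9%, background 84.9%). The lists held 29432 peaks in DRB, 31240 in ActD and 17007 in DMSO.

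In the acH2A.Z lists of DRB, ActD and DMSO cells, the median peak at the members' starts was larger than the median of the list. The list median takes in peaks away from gene starts, and the largest peak was taken where a start had several. Start peaks of other expressed genes were not compared, so these values do not set the members apart from them. The deposited normalized tag count, whose scale is not stated and which was not compared between lists, had a median of 258 at members' starts in DRB against 87.7 for all peaks of that list. The corresponding medians were 517 against 24.6 in ActD and 742 against 161 in DMSO, where 61 of 62 members' peaks were above the list's median. In the remaining lists the members' median was above that of the list except in Tip60 RIP. In acH2A.Z siNTC the median was 142.8 against 101.3, with 34 of 62 above, in H2A.Z DRB 18.3 against 16.9, with 15 of 27 above, and in Tip60 RIP 5.78 against 6.12, with 11 of 22 above. COX6A1 had the highest peak score of the members in DRB (chr12:120437394-120438690, ranked 26 of 29432), COX5B in ActD (chr2:97645023-97647895, ranked 264 of 31240) and UQCRFS1 in DMSO (chr19:29211399-29214353, ranked 27 of 17007), each over the promoter printed above. These ranks are by score. By tag count the same peaks ranked 8520 for COX6A1, 5094 for COX5B and 1082 for UQCRFS1.

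A total of 70 members had acH2A.Z peaks in DRB, ActD and DMSO alike (84.3%, against 80.0% of the expressed genes). ATP5I, a small membrane subunit of complex V, had no peak in DRB or ActD and one in DMSO, and ATP5D, NDUFA3, NDUFB10 and NDUFC2 had none in ActD and one in DRB and DMSO. A peak in DMSO and none in ActD was thus found at 5 members (6.02%, against 6.99% of the expressed genes). One in DMSO and none in DRB was found at 1 member (1.20%, against 0.867%). Both shares were near those of the expressed genes. SDHA had no start peak in ActD, where it had a peak in the gene body, and a start peak in DRB and DMSO. At gene starts, a peak in DMSO and none in ActD was found at 4 of 66 members (6.06%, against 7.73% of the expressed genes). COX7B2 and COX8C, at 0 counts and 1 count in RNA, had peaks within 1 kb of the body in DRB and ActD and none in DMSO. They made up 2.41% of members, against 6.31% of the expressed genes with a peak in DRB and none in DMSO, and 3.28% for ActD. ATP5J2LP, ATP5L2, COX6A2, COX6B2, COX7A1 and UQCRHL, all copies or tissue isoforms, had none in any of these 3 lists or in siMyc and siNTC (7.23%, against 4.93% of the expressed genes). By complex, the peaks in DMSO covered 37 of 37 complex I members, 4 of 4 in complex II, 8 of 9 in complex III, 9 of 14 in complex IV and 17 of 19 in complex V.

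**Figure D4:**
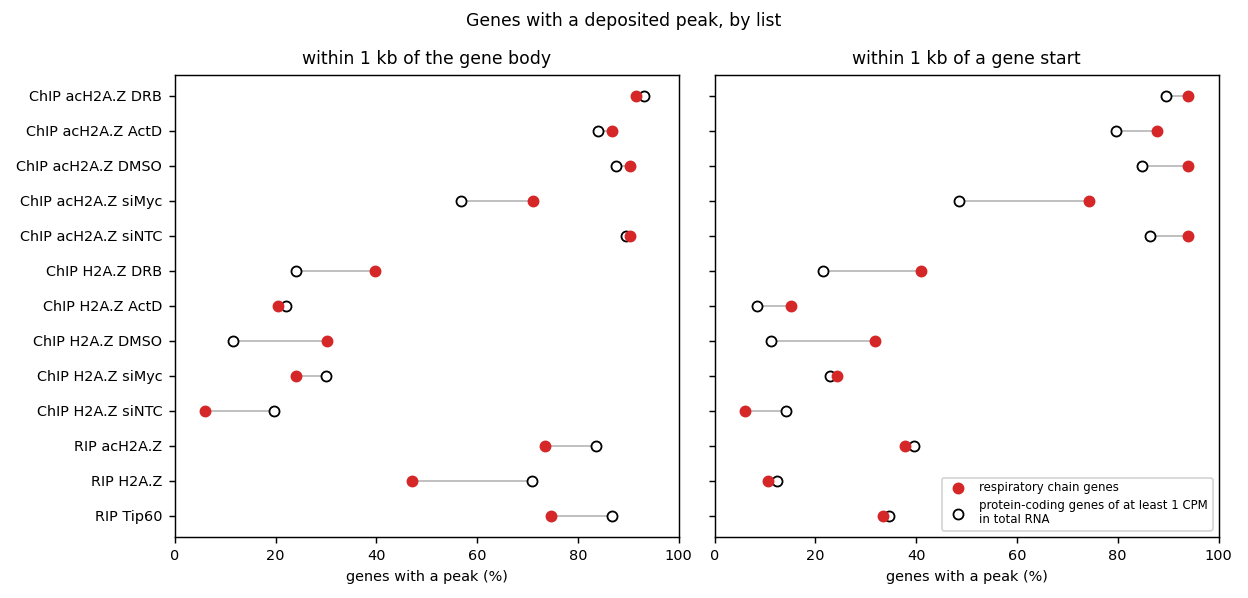
Percent of genes with a peak in each of the 13 lists, within 1 kb of the gene body and within 1 kb of the gene start, for the members (filled) and for protein-coding genes of at least 1 CPM in total RNA (open). For H2A.Z in DMSO the members lie at 30.1% against 11.5%, and in the 3 RIP gene-body values they lie below the expressed genes.

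In the H2A.Z lists of DRB, ActD and DMSO cells, between 17 and 33 members had a peak. These peaks were found at 33 members in DRB (39.8%, background 24.0%), 17 in ActD (20.5%, background 22.0%) and 25 in DMSO (30.1%, background 11.5%). At gene starts they were found at 27 of 66 in DRB (40.9%, background 21.4%), 10 in ActD (15.2%, background 8.32%) and 21 in DMSO (31.8%, background 11.2%). Complex I accounted for 21 of the 33 in DRB, 10 of the 17 in ActD and 17 of the 25 in DMSO. No complex II gene had one in DRB or DMSO, and 3 of 4 did in ActD. The highest-scoring member peaks were at NDUFV2 in DRB (chr18:9102488-9103238), NDUFB1 in ActD (chr14:92121703-92122203) and NDUFB5 in DMSO (chr3:179604322-179605370). The lists had 4191 peaks in DRB, 17888 in ActD and 1271 in DMSO, so among the DRB, ActD and DMSO lists that of ActD held the most peaks and the smallest number of members.

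The siMyc and siNTC lists differed in opposite directions for acH2A.Z and H2A.Z. acH2A.Z peaks were found at 59 members in siMyc (71.1%, background 56.9%) and 75 in siNTC (90.4%, background 89.6%). No member had a peak in siMyc and none in siNTC, while 16 had none in siMyc and one in siNTC (19.3%, against 34.3% of the expressed genes). These were ATP5B, ATP5C1, ATP5D, ATP5E, ATP5I, COX5A, COX6A1, COX8A, NDUFA7, NDUFA8, NDUFB10, NDUFB7, NDUFC2, NDUFS7, SDHA and UQCRQ. H2A.Z peaks were found at 20 members in siMyc (24.1%, background 30.0%) and 5 in siNTC (6.02%, background 19.7%), and the 5 of siNTC, ATP5G1, ATP5H, COX5B, NDUFB3 and UQCRB, were also in siMyc. At gene starts acH2A.Z peaks were found at 49 of 66 members in siMyc (74.2%, background 48.5%) and 62 in siNTC (93.9%, background 86.4%), and H2A.Z peaks at 16 in siMyc (24.2%, background 22.9%) and 4 in siNTC (6.06%, background 14.2%). In siMyc the highest-scoring member peak was at ATP5A1 in both lists (acH2A.Z chr18:46098340-46098999), and in siNTC at SDHA for acH2A.Z (chr5:217764-218862) and at ATP5H for H2A.Z (chr17:75046972-75047849). The acH2A.Z lists had 14528 peaks in siMyc and 17353 in siNTC, and the H2A.Z lists 11180 in siMyc and 6956 in siNTC. These peak numbers move the same way as the members' counts, and their part in the result was not tested. Over all 5 acH2A.Z lists, 58 members had a peak in every one (69.9%, against 51.7% of the expressed genes).

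**Figure D5:**
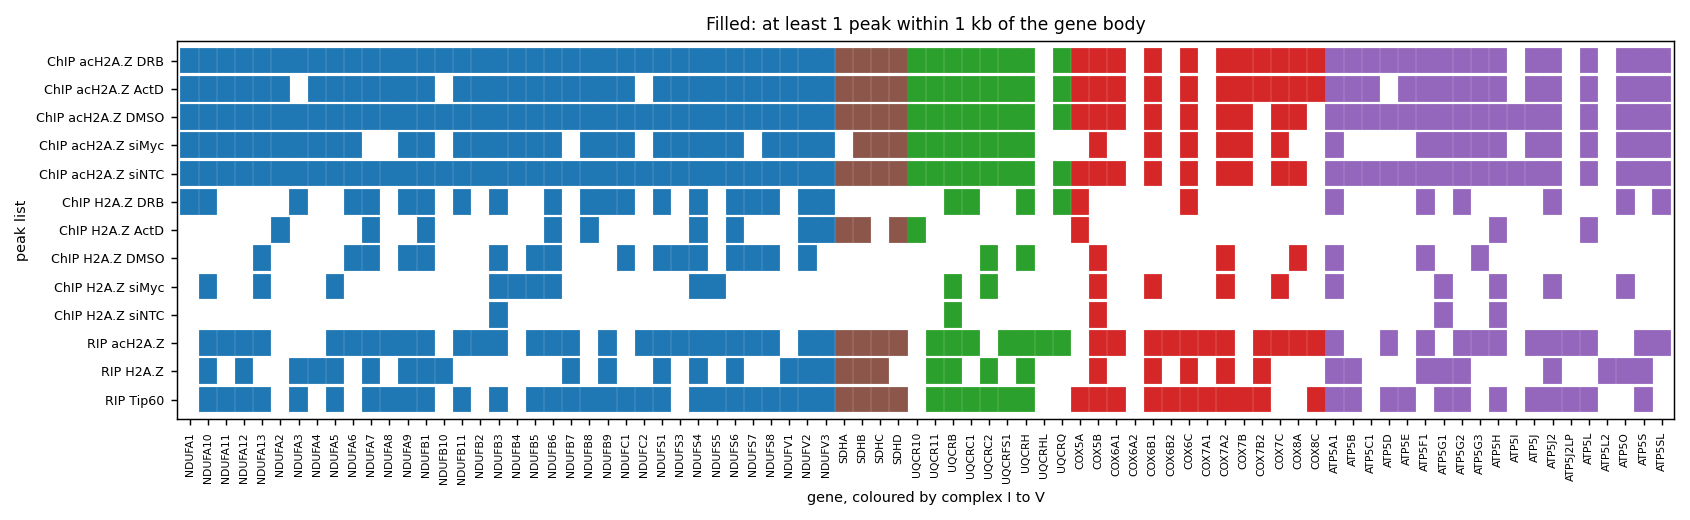
Presence of at least 1 peak within 1 kb of the gene body for each member but 1 (columns, coloured by complex) in each of the 13 peak lists (rows), filled where a peak was present. The acH2A.Z rows of DRB, ActD, DMSO and siNTC are nearly full except for the copies and tissue isoforms. In the acH2A.Z siMyc row, 16 members that are filled in siNTC are empty, and the H2A.Z siNTC row has 5 filled cells.

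RNA immunoprecipitation gave the members fewer peaks than other expressed genes. RIP peaks were within 1 kb of the body of 61 members for acH2A.Z (73.5%, background 83.6%), 39 for H2A.Z (47.0%, background 71.0%) and 62 for Tip60 (74.7%, background 86.8%). The members are shorter, with a median gene length of 8.92 kb against 30.8 kb for the expressed genes, and the part of length was not tested. At gene starts, where the window is the same for every gene, the shares were 37.9% for acH2A.Z (25 of 66, background 39.6%), 10.6% for H2A.Z (7, background 12.4%) and 33.3% for Tip60 (22, background 34.6%), close to the background in each. All 3 lists had a peak at 28 members (33.7%, against 61.0%), and none had one at ATP5C1, ATP5I, COX6A2, NDUFA1, NDUFA2, NDUFB4 and UQCR10 (8.43%, against 4.59%). UQCR11 was the sole member with a start peak in all 3 (1.52% of 66, against 2.56% of the expressed genes). These peaks lay within 1 kb of the start, a wider window than the promoter printed above. The highest-scoring RIP peaks lay within 1 kb of the ATP5H start for acH2A.Z (chr17:75047606-75048106, ranked 3170 of 264469), in NDUFA10 for H2A.Z (chr2:240001885-240002385, ranked 48 of 99234) and in ATP5A1 for Tip60 (chr18:46095697-46096597, ranked 177 of 249628). By tag count they ranked 26335, 376 and 4900. The peak near ATP5H lay outside the gene, whose start is at base 75046969, and was counted through the 1 kb margin alone.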

How the data were processed

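Nascent and total RNA, ChIP and RIP of HL-60 cells were deposited as 8 gene tables and 13 peak lists, with 1 library in each of 27 groups. Groups were taken from the sample titles. HOMER, STAR 2.5.2b, cutadapt, Trim Galore and FastQC are named, with build GRCh38, per the submitters' processing notes. Which quantifier and annotation were used is not given in the sources used here. Gene tables hold, per the file headers, expected counts and TPM, which the authors deposited, and in the DRB, ActD and DMSO nascent tables the same values are joined in 1 field (other unit), which was split at spaces. Per the file headers, peak lists give a normalized tag count (signal), a score and a fold over control (ratio). The scale and the control library are not stated there. In the deposited lists every fold is at least 4 and every p-value at most 0.0001.

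Expected counts were scaled to CPM, and log2 ratios used a pseudocount of 1 CPM, so ratios of low genes are understated. Genes averaging 1 CPM or more with 20 or more summed counts counted as measured, and 2-fold as called. Intervals are exact (Clopper-Pearson) on rounded counts. Reads carry no molecular identifiers and are not independent molecules, so intervals and floors (3 counts, 0.119 to 0.238 CPM) cover counting error only. Coordinates and promoters came from RefSeq, matched for all 84 IDs. The second SDHD ID was not used for peaks. Members, lists and the rule for named genes (the highest and lowest of each complex with at least 100 summed counts, core subunits, isoforms, top-scoring peaks) were chosen with earlier results of these data known, and genes named for their peak patterns, with COX7C, NDUFB6, UQCRH, UQCR10 and UQCR11, after their values were seen. The values of 1 member and 1 marker are not reported here. The ratio step was tested on simulated data. Alternatives were 0.25 CPM, other filters, centring, rescaling, 1.5-fold, an 8-fold peak limit, start windows and peak centres. The 3 input DNA tables and the 6 IgG libraries enter no comparison. Python 3.11.15, pandas 2.3.3, numpy 2.4.6, scipy 1.17.1 and matplotlib 3.10.9 were used.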

Additional observations from a re-analysis of the deposited data

How the results depend on the processing

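No paired analysis was possible because each group held 1 library, and no library could be left out. The members' median log2 ratio in DRB against DMSO was -0.67 with a pseudocount of 0.25 CPM, -0.53 with at least 100 summed counts, 0.67 centred on the median gene (25 higher, 8 lower) and 0.071 rescaled (7 higher, 19 lower), and the 1.5-fold limit gave 4 higher. After centring, the DRB ratio became 0.20 for COX6A1, 0.0056 for COX7A2 and 0.25 for UQCRC1, and the ActD ratio 0.14 for SDHB. By construction, centring adds the same amount to every gene. In ActD against DMSO the median was 0.068 with at least 100 summed counts, 0.91 centred (37 higher, 12 lower) and 0.13 rescaled. In ActD against DRB it was 0.42 with no filter, 0.70 with at least 100 summed counts (9 lower), 0.16 centred and 0.11 rescaled. In untreated nascent against total RNA it was 0.29 centred (21 higher, 2 lower) and 0.23 rescaled (21 higher, 3 lower), and the 1.5-fold limit gave 22 higher and 17 lower. In DMSO against untreated nascent RNA it was -0.094 with no filter and -0.091 centred, -0.28 rescaled, and the 1.5-fold limit gave 20 lower. The 1.5-fold limit was not applied to all genes. With an 8-fold peak limit, 10 members had a peak in H2A.Z ActD (12.0%, background 15.7%). In acH2A.Z, 18 had one in siMyc (21.7%, background 16.9%) and 43 in siNTC (51.8%, background 53.1%). In H2A.Z, 7 had one in siMyc (8.43%, background 6.76%) and 1 in siNTC (1.20%, background 4.13%). H2A.Z RIP had 20 (24.1%, background 48.6%). The share in acH2A.Z siNTC was then below the background and that in H2A.Z siMyc above it, the reverse of the gene-body shares without this limit. In start windows 66 members could be placed. Members with a peak there numbered 10 in H2A.Z ActD (15.2%, background 8.32%) and 25 in acH2A.Z RIP (37.9%, background 39.6%). They numbered 7 in H2A.Z RIP (10.6%, background 12.4%) and 22 in Tip60 RIP (33.3%, background 34.6%). Of the alternatives, 45 of 60 counts of called members and 29 of 39 peak counts stayed within 1.5 times, while 16 of 25 medians moved. Of 845 single-gene values, 4 changed the sign of a called ratio and 198 others moved. Depth limits members of few counts, 15 of which had at most 3 counts in DRB, 22 in ActD and 9 in DMSO.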

Other observations

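Subunits and carriers whose names fall outside the rule gave further values. CYC1, the cytochrome subunit of complex III, had 46.7 CPM in DRB and 5.08 CPM in ActD, against 53.4 CPM in DMSO, 51.6 CPM in untreated nascent RNA and 61.3 CPM in total RNA. It was low in ActD alone, at -3.16 against DMSO (-1.99 centred). COX4I1, a complex IV subunit, lay between 33.7 and 43.7 CPM in all 5 libraries. CYCS, which codes for cytochrome c, had 126 CPM in DRB and 247 CPM in ActD, against 197 CPM in DMSO, 40.5 CPM in untreated nascent RNA and 68.5 CPM in total RNA. Of the 8 measured genes of that list, none passed 2-fold in DRB against DMSO, and 1 was higher and 3 lower in ActD.

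Across the 73 members measured in DRB against DMSO, gene length and log2 ratio had a Spearman rho of -0.16, and across 10217 protein-coding genes it was 0.24. In ActD against DMSO rho was -0.11 over 74 members and -0.15 over 10151 genes. These describe genes of the same library pair and carry no test.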
